A study of Mus musculus with 10 samples.

Results

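The Iroquois homeobox genes of the mouse are Irx1, Irx2, Irx3, Irx4, Irx5 and Irx6, and all 6 were described here among the 38924 gene identifiers that every count file lists. They were picked out by name. An identifier was taken when its stable part carries 1 of these 6 symbols in GENCODE M21, which gave a symbol to 37607 of the identifiers. The family itself and the gene lists below were chosen with earlier results of these data known. The cells came from 1 mESC line, Foxa2-hCD4, whose Foxa2 locus also drives a shortened human CD4 on the cell surface (hCD4), so that every group carried this reporter and living cells could be sorted by it. Cells were sorted at day 5 of differentiation and their RNA was sequenced. The cardiac cultures received Activin A at 8 ng/ml and gave Foxa2+ cardiac mesoderm (CM; Kdr+, Pdgfra+, hCD4+, 3 samples), Foxa2- CM (Kdr+, Pdgfra+, hCD4-, 3 samples) and the group labelled Flk1+ high (2 samples), which the study describes as haematopoietic mesoderm and which is called so below. The endoderm cultures received Activin A at 75 ng/ml and gave hCD4+ endoderm (2 samples). In the same step the cardiac cultures also received BMP4 and vascular endothelial growth factor, which the study's methods do not name for the endoderm cultures. No treatment other than the differentiation factors was compared, the sources do not say whether replicates came from separate cultures, and the p-values below therefore measure only the spread between these samples.

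Iroquois proteins are transcription factors of the TALE class of homeodomain proteins, which bind DNA and mostly act by repressing or activating other genes during tissue patterning. In mammals their genes lie in 2 clusters, IrxA with Irx1, Irx2 and Irx4, and IrxB with Irx3, Irx5 and Irx6. In the heart, Irx4 marks the ventricular myocardium and keeps atrial genes off there, Irx3 serves the ventricular conduction system, and Irx5 shapes the gradient of potassium channels across the ventricular wall. Outside the heart, Irx1, Irx2, Irx3 and Irx5 are best known from the neural plate, the lung, the limb and other organs of later development.

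On mm10, the IrxA genes lie on chromosome 13 and the IrxB genes on chromosome 8. Irx1 (ENSMUSG00000060969.8) spans chr13:71957921-71963723 on the minus strand, Irx2 (ENSMUSG00000001504.9) spans chr13:72628820-72634198 on the plus strand and Irx4 (ENSMUSG00000021604.9) spans chr13:73260479-73269608 on the plus strand. Irx3 (ENSMUSG00000031734.11) spans chr8:91798525-91802067 on the minus strand, Irx5 (ENSMUSG00000031737.10) spans chr8:92357625-92376286 on the plus strand and Irx6 (ENSMUSG00000031738.8) spans chr8:92674288-92680956 on the plus strand. All 6 are protein-coding genes, and the counts were taken over whole genes. An antisense gene, Irx3os, overlaps Irx3, and since the strand setting of the counting is not stated, reads of Irx3 and Irx3os in the shared stretch cannot be told apart.

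The sequence that the family shares is the homeobox, and its likeness decides how well 50 nt reads can be given to 1 member. The coding strand of 63 codons (189 bases) around the homeobox is printed below for each member, taken from the GENCODE M21 transcript with the longest coding part. Capitals mark the 140 bases, 74.1% of the window, that are identical in all 6 members.
Irx1: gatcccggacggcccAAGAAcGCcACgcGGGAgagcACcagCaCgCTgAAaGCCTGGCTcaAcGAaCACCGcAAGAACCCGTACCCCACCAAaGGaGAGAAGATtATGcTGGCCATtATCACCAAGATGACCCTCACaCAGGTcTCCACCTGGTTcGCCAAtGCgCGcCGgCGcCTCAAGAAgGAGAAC
Irx2: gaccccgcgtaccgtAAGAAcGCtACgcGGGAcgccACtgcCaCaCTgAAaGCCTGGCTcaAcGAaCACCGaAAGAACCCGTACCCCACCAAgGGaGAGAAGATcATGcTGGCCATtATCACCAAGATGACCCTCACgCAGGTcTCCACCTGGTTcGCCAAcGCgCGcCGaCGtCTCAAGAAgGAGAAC
Irx4: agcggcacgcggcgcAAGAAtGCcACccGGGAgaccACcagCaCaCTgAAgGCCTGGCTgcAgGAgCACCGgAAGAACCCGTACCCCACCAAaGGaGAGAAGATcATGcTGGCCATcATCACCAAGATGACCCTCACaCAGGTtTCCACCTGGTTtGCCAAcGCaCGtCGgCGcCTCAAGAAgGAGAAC
Irx3: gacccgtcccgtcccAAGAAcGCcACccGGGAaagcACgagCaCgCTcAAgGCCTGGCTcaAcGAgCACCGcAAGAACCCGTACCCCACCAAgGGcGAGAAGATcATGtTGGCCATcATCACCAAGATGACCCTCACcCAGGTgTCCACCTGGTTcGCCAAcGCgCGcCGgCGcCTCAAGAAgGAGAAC
Irx5: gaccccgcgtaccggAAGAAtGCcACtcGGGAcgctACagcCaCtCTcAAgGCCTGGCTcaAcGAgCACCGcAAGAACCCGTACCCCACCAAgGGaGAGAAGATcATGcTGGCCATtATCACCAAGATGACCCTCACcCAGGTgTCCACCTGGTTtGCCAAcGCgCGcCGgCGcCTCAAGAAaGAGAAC
Irx6: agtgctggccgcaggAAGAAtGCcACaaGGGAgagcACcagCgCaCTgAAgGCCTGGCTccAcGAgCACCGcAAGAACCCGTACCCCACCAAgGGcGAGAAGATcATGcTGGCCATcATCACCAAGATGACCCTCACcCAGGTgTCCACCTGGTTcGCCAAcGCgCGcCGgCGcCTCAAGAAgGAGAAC

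Between 2 members, 83.1% to 91.0% of the bases in this window were the same, with Irx2 and Irx5 the most alike. Over whole transcripts, 3 of the 15 pairs shared an exact run of at least the 50 nt of a read, namely Irx3 with Irx6 (88 bases), Irx2 with Irx5 (65 bases) and Irx3 with Irx5 (50 bases). Such runs held 1.45% of all 50-base stretches of Irx3, 1.16% of those of Irx6, 0.552% of those of Irx5 and 0.481% of those of Irx2, and none of those of Irx1 or Irx4. A read from these stretches cannot be given to 1 member, so only a small part of each gene was open to such a loss.

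Depth bounds every value that follows. Each sample had between 10926284 and 17470126 counts that fell on genes, and a floor of 3 counts stood between 0.169 and 0.2795 CPM (counts scaled to a TMM-normalized library of 1000000), which covers counting error only because the reads carry no molecular identifiers. Replicates of a group differed by more than sampling noise, and the chi-square divided by its degrees of freedom ran from 3.72 to 21.5. The sort was checked on its own genes: Foxa2 was at 20.03, 16.03 and 3.50 CPM in Foxa2+ CM, at 2.54, 0.873 and 0.903 CPM in Foxa2- CM, at 186 and 183 CPM in endoderm and at 0.690 and 0.788 CPM in haematopoietic mesoderm. Foxa2+ CM replicate 3 thus held less Foxa2 than the other 2 samples of its group. Foxa2- CM replicate 3 stood apart in endothelial transcripts, with Cdh5 at 43.4 CPM against 2.85 and 1.98 CPM in replicates 1 and 2. In Foxa2+ CM, replicate 3 was the highest sample too, with Cdh5 at 13.6 CPM against 4.53 and 7.81 CPM. Tal1 was at 112 and 101 CPM in replicate 3 of Foxa2+ CM and Foxa2- CM, against 34.9 to 58.1 CPM in the other CM samples. Etv2 was lowest in replicate 3 of both groups, and Lmo2 in that of Foxa2+ CM. For both reasons the comparison of the CM groups is also given without the third replicates. A set of 9 blood and endothelium markers summed to 1229 and 1565 CPM in haematopoietic mesoderm against 289 to 510 CPM in the CM samples, and a set of 8 definitive endoderm markers summed to 917 and 1106 CPM in endoderm against 176 to 256 CPM elsewhere.

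Irx3, the conduction-system gene of the IrxB cluster, had the highest level of the family in every group on a scale per length. In RPKM (CPM divided by the exon length in kilobases), Irx3 was at 1.72 ± 0.183 (SD, n = 3) in Foxa2+ CM, 1.83 ± 0.515 (SD, n = 3) in Foxa2- CM, 20.8 ± 10.4 (SD, n = 2) in endoderm and 3.28 ± 1.57 (SD, n = 2) in haematopoietic mesoderm. The member that followed differed by group: it was Irx2 in both CM groups, at 0.413 ± 0.0822 and 0.996 ± 0.364 RPKM (SD, n = 3 each), Irx5 in endoderm, at 4.05 ± 2.82 RPKM (SD, n = 2), and Irx1 in haematopoietic mesoderm, at 0.836 ± 0.715 RPKM (SD, n = 2). The samples of Irx3 lay above those of the member that followed in Foxa2+ CM, endoderm and haematopoietic mesoderm, whereas in Foxa2- CM the lowest Irx3 sample (1.24 RPKM) lay under the highest Irx2 sample (1.32 RPKM). Within each Foxa2- CM sample, however, Irx3 lay above Irx2, at 2.08 against 1.32, 1.24 against 1.06 and 2.17 against 0.602 RPKM. Overlap in this paragraph compares ranges over the samples of a group, not members within a sample. Below the top, most neighbours in the order were not separated by their samples: Irx2, Irx4, Irx1, Irx5 and Irx6 overlapped one after another in Foxa2+ CM, as did Irx2, Irx1, Irx4 and Irx5 in Foxa2- CM and Irx1, Irx2, Irx5 and Irx4 in haematopoietic mesoderm. In endoderm, Irx5 and Irx1 overlapped, both lay above Irx2, by as little as 2.06 against 1.96 RPKM, and Irx2 lay above Irx6 and Irx4. The order was the same when the longest transcript replaced the summed exons as the length.

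**Figure D1:**
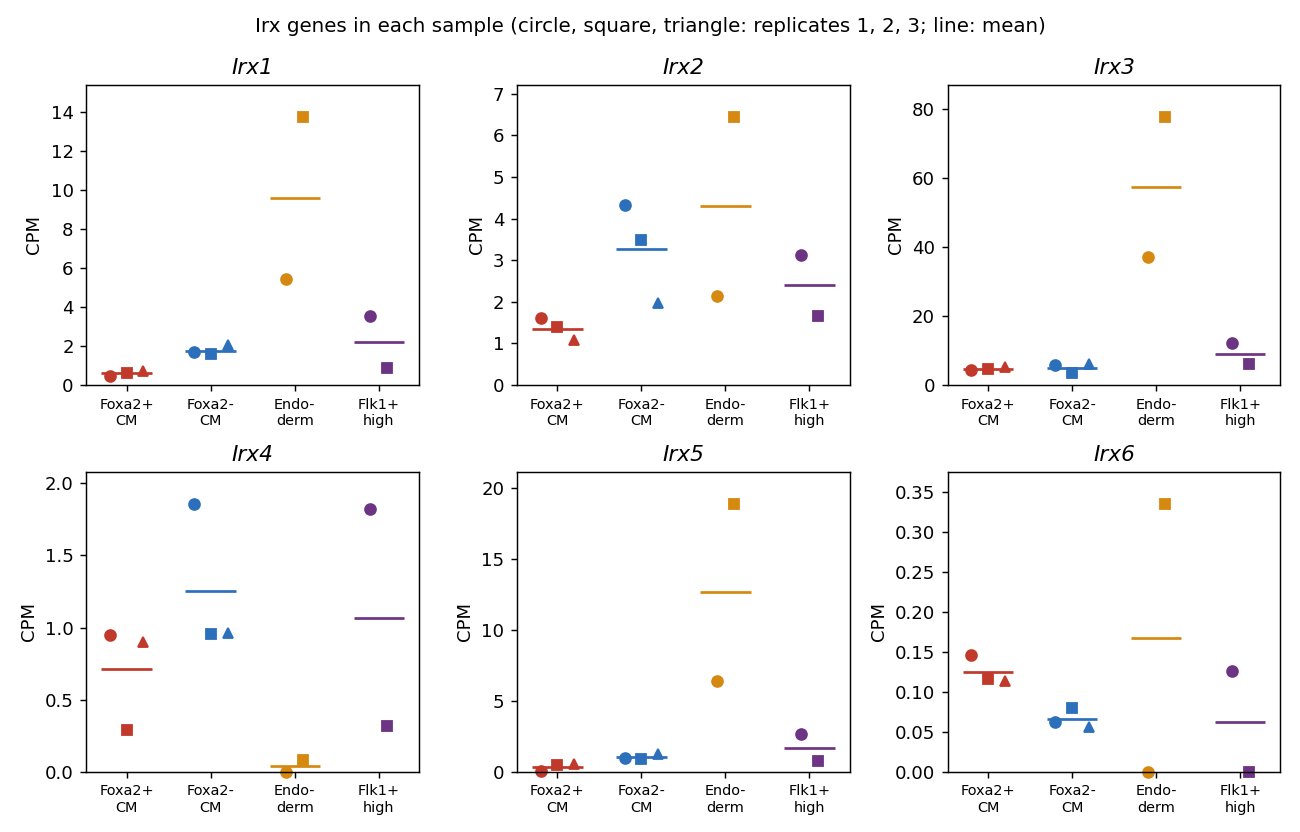
Expression of the 6 Irx genes in each of the 10 samples, in CPM on a linear axis that starts at 0 and has its own range in each panel; symbols are replicates 1, 2 and 3 and lines are group means. Irx1, Irx3 and Irx5 stood highest in the 2 endoderm samples, whereas Irx4 was at 0 and 0.0837 CPM there.

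Irx1 showed the difference between the CM groups that passed the test. It was at 0.439, 0.637 and 0.733 CPM (6, 11 and 13 counts) in Foxa2+ CM and at 1.67, 1.59 and 2.03 CPM (27, 20 and 36 counts) in Foxa2- CM, so that every Foxa2+ CM sample lay below every Foxa2- CM sample. The log2 fold change was -1.52 (Foxa2+ minus Foxa2-; standard error 0.27, 95% interval -2.16 to -0.89, adjusted p = 0.0186 by the quasi-likelihood test of edgeR, Benjamini-Hochberg adjusted over all 15284 genes tested). Irx1 was the only member of the 5 tested that passed in this comparison, against 6.48% of all genes tested that passed in either direction and 2.66% that passed as lower in Foxa2+ CM.

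Irx5 and Irx2 were also lower in Foxa2+ CM in every sample, without passing the test. Irx5, the IrxB gene of the ventricular wall, was at 0.0731, 0.463 and 0.564 CPM (1, 8 and 10 counts) in Foxa2+ CM and at 0.991, 0.873 and 1.24 CPM (16, 11 and 22 counts) in Foxa2- CM. Its log2 fold change was -1.43 (95% interval -2.54 to -0.31, adjusted p = 0.145 by the quasi-likelihood test of edgeR, Benjamini-Hochberg adjusted). Irx2, the middle gene of the IrxA cluster, was at 1.61, 1.39 and 1.07 CPM in Foxa2+ CM and at 4.33, 3.49 and 1.98 CPM in Foxa2- CM. Its log2 fold change was -1.26 (95% interval -2.02 to -0.50, adjusted p = 0.0656 by the same edgeR test). In both CM groups the lowest Irx2 value was that of replicate 3. Irx5 passed the filter on low values through the Foxa2- CM samples alone (3 of 3 samples at the minimum of 0.613 CPM against 0 of 3), and Irx1 through 3 of 3 against 2 of 3 samples, so that a difference was in part built into their being tested.

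Irx4, the ventricular member, did not pass between the CM groups, and neither did Irx3, whose samples overlapped. Irx4 was at 0.950, 0.289 and 0.902 CPM (13, 5 and 16 counts) in Foxa2+ CM and at 1.86, 0.953 and 0.959 CPM (30, 12 and 17 counts) in Foxa2- CM. Replicate 1 was the highest sample of each group, and the highest Foxa2+ CM sample lay just under the lower 2 Foxa2- CM samples. The log2 fold change of Irx4 was -0.83, and its 95% interval from -1.91 to 0.25 held a large fall as well as a slight rise (adjusted p = 0.413 by edgeR's quasi-likelihood test). Irx3 was at 4.31, 4.63 and 5.30 CPM in Foxa2+ CM and at 5.76, 3.41 and 5.98 CPM in Foxa2- CM, with a log2 fold change of -0.09 (95% interval -0.65 to 0.46, adjusted p = 0.915 by the same test). The interval of Irx3 left room for less than a 2-fold change in either direction. In CPM, the groups did not overlap for 4 of the 5 members tested (Irx1, Irx2, Irx4 and Irx5), all lower in Foxa2+ CM, where 10.6% of all genes had such a pattern in this direction. For Irx4 this rested on 0.950 against 0.953 CPM. Its raw counts overlapped, with 13 in Foxa2+ CM replicate 1 and 12 in Foxa2- CM replicate 2, so that its place among the 4 came from the library scaling.

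Without replicate 3 of both CM groups, a choice made after the data were seen, Irx1, Irx2, Irx4 and Irx5 passed as lower in Foxa2+ CM, while 17.4% of all genes tested passed in either direction. This count includes Irx5, for which being tested rested on the Foxa2- CM samples. The log2 fold changes were then -1.55 for Irx1 (adjusted p = 0.00197), -1.39 for Irx2 (adjusted p = 0.000132), -1.65 for Irx5 (adjusted p = 0.0117) and -1.28 for Irx4 (adjusted p = 0.0192), each by edgeR's quasi-likelihood test on 2 samples a group. Irx3 stayed at -0.04 (adjusted p = 0.964). Without the filter on low values Irx2 passed beside Irx1, where 4.74% of 25526 genes passed. With same-numbered samples as a replicate block, Irx2 (adjusted p = 0.00288 by edgeR) and Irx5 (adjusted p = 0.0332 by edgeR) passed beside Irx1. There 16.7% of all genes tested passed, and no label says that a number marks a shared culture. In the opposite direction, Irx1 did not pass when Foxa2+ CM replicate 1 or 2 or Foxa2- CM replicate 1 or 2 was left out, nor when all 10 samples entered 1 model, in which no member passed and 1.78% of all genes did. Over its 12 alternative settings the adjusted p of Irx1 ran from 0.00197 to 0.249, with 7 calls.

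**Figure D2:**
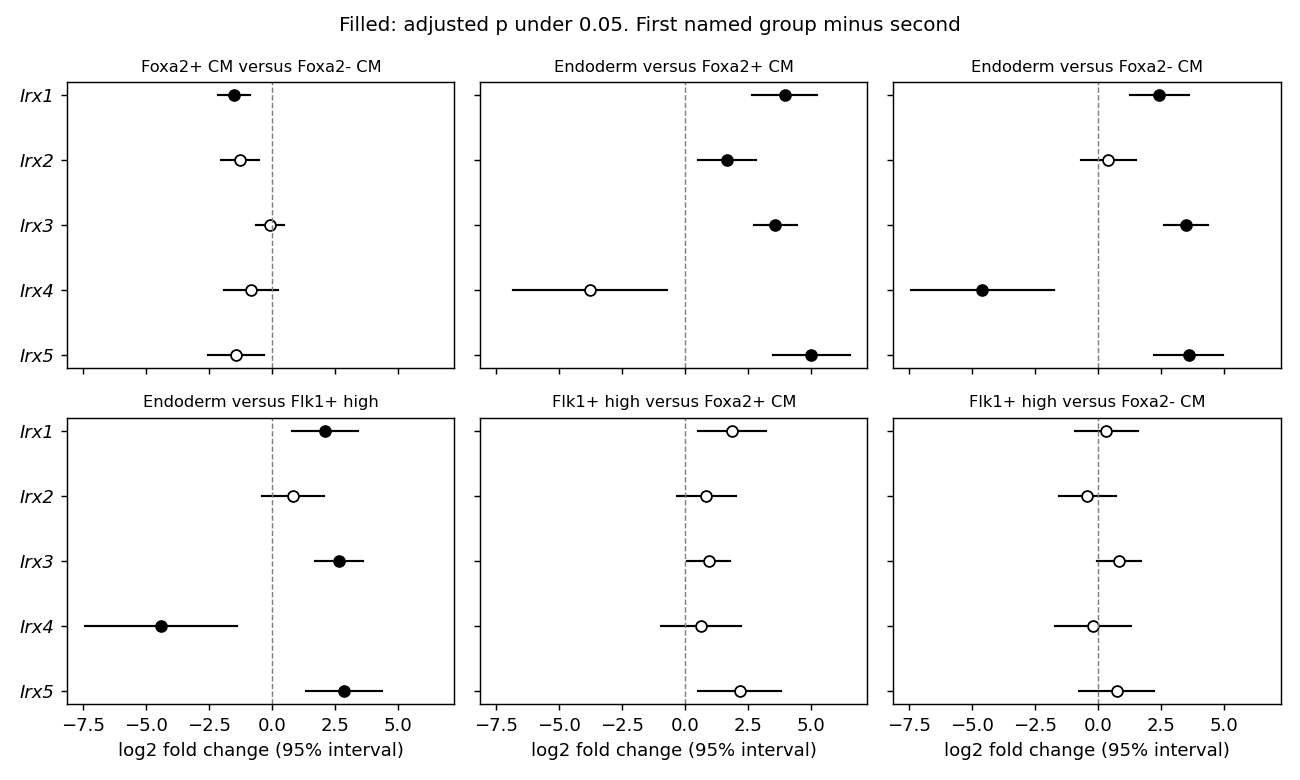
Log2 fold change (first named group minus the second, points) with its 95% interval (lines) for the 5 members tested in each of the 6 comparisons; filled points passed at 0.05 after adjustment (edgeR). The comparison of the CM groups has 1 filled point, Irx1 at -1.52, and the comparisons of endoderm hold 4 each.

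In endoderm, Irx3, Irx5 and Irx1 stood far above their level in either CM group. Irx3 was at 37.1 and 77.7 CPM (398 and 929 counts) in endoderm, where no other sample exceeded 12.1 CPM. Its log2 fold change was 3.59 against Foxa2+ CM (95% interval 2.73 to 4.46, adjusted p = 1.38e-04) and 3.49 against Foxa2- CM (95% interval 2.63 to 4.36, adjusted p = 1.81e-04), both by edgeR's quasi-likelihood test on all 10 samples. Irx5 was at 6.43 and 18.9 CPM (69 and 226 counts) in endoderm, with a log2 fold change of 5.02 against Foxa2+ CM (95% interval 3.50 to 6.55, adjusted p = 4.93e-04) and 3.59 against Foxa2- CM (95% interval 2.22 to 4.97, adjusted p = 0.00211). Irx1 was at 5.40 and 13.7 CPM (58 and 164 counts), with a log2 fold change of 3.95 against Foxa2+ CM (95% interval 2.67 to 5.24, adjusted p = 7.29e-04) and 2.43 against Foxa2- CM (95% interval 1.26 to 3.60, adjusted p = 0.00705). The 2 endoderm samples of Irx1, Irx3 and Irx5 lay above all 8 samples of the other groups.

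Irx2 and Irx4 differed from this pattern. Irx2 was at 2.14 and 6.44 CPM (23 and 77 counts) in endoderm, and replicate 1 lay within the range of Foxa2- CM. It rose against Foxa2+ CM, with a log2 fold change of 1.67 (95% interval 0.53 to 2.82, adjusted p = 0.0298 by edgeR's quasi-likelihood test), a call that was kept in 10 of 15 alternative settings. It was lost without endoderm replicate 2, where the value was 0.64 (adjusted p = 0.416 by edgeR), without any 1 of the 3 Foxa2+ CM samples (adjusted p = 0.0572 to 0.0887) and with the replicate block (adjusted p = 0.0694). Against Foxa2- CM, the log2 fold change of Irx2 was 0.41 (95% interval -0.70 to 1.51, adjusted p = 0.571 by the same test). Irx4 had 0 and 1 counts in the endoderm samples, against 4 to 30 counts in the other 8 samples. Scaled to library size, the ratio of Irx4 to endoderm was 28.8 for Foxa2- CM (95% counting interval 4.97 to 1157), 15.8 for Foxa2+ CM (95% counting interval 2.66 to 644) and 26.1 for haematopoietic mesoderm (95% counting interval 4.38 to 1064). In the edgeR test Irx4 fell in endoderm against Foxa2- CM (adjusted p = 0.0221) and against haematopoietic mesoderm (adjusted p = 0.0308), and did not pass against Foxa2+ CM (adjusted p = 0.0572). These calls were unsteady: the first was lost without endoderm replicate 1 or 2 or Foxa2- CM replicate 1 (adjusted p = 0.126, 0.0760 and 0.0552 by edgeR), and the second without endoderm replicate 1 or 2 or haematopoietic mesoderm replicate 1 (adjusted p = 0.142, 0.0885 and 0.237). Against Foxa2+ CM, Irx4 passed in 7 of 15 alternative settings, among them DESeq2 (adjusted p = 0.0496), no filter (adjusted p = 0.0372) and the replicate block (adjusted p = 0.0287). The fitted fold changes of Irx4 rest on the prior count and are no bounds. Irx4 passed the filter without endoderm, where 0 of 2 samples reached the minimum of 0.688 CPM. In Foxa2+ CM 2 of 3 samples did, in Foxa2- CM 3 of 3 and in haematopoietic mesoderm 1 of 2. A fall in endoderm was thus in part built into its being tested.

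Counted together, 4 of the 5 members tested were higher in endoderm than in Foxa2+ CM (Irx1, Irx2, Irx3 and Irx5), where 35.0% of all genes tested passed in either direction and 18.3% as higher in endoderm. Against Foxa2- CM, 3 members were higher (Irx1, Irx3 and Irx5) and 1 lower (Irx4). There 30.1% of all genes passed in either direction, 16.1% as higher and 14.0% as lower. For Irx4, being tested rested on the groups other than endoderm, and for Irx5, 0 of 3 Foxa2+ CM samples reached the minimum of the filter. The calls of Irx3 and Irx5 held in all 15 alternative settings of both comparisons. That of Irx1 against Foxa2- CM was lost without endoderm replicate 2, where the log2 fold change was 1.59 (adjusted p = 0.0894 by edgeR). These comparisons share the endoderm samples, so their results are not separate evidence. The endoderm cultures also differed from the cardiac cultures in the dose of Activin A. BMP4 and vascular endothelial growth factor are named for the cardiac cultures only. The sorted lineage and the culture cannot be told apart.

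The 2 endoderm samples differed from each other in the same members. Replicate 2 was 2.54-fold higher than replicate 1 for Irx1, 3.01-fold for Irx2, 2.10-fold for Irx3 and 2.94-fold for Irx5, where 5.77% of 15883 genes were at least 2-fold higher in replicate 2 and the median ratio over those genes was 1.01. Other values moved between these samples too, and the TALE gene Meis2 was at 12.2 and 34.1 CPM in replicates 1 and 2. The 8 cardiac mesoderm markers summed to 132 and 220 CPM. Most of this rise lay in Gata4 (60.2 and 122 CPM) and Pdgfra (49.9 and 71.6 CPM). Kdr, Tbx20 and Nkx2-5 were also higher in replicate 2, whereas Mesp1 (5.40 and 1.92 CPM), Hand1 and Mef2c were lower. The blood and endothelium markers summed to 45.9 and 92.7 CPM, and most of this rise lay in Runx1 (22.4 and 57.6 CPM). Hbb-bh1 had no counts in either sample. The remaining markers of that set were higher in replicate 2, some only slightly, as with Etv2 (6.80 and 7.95 CPM). A set of 9 neural plate markers, which were high in endoderm (629 and 618 CPM, against 141 to 168 CPM in the other 8 samples), did not rise from replicate 1 to 2 in its sum, which Nes (271 and 231 CPM) and Otx2 (240 and 250 CPM) mostly made up. Of the other members of that set, Sox1 was at 0.0932 and 1.84 CPM, Pax6 at 0.186 and 1.34 CPM and Hesx1 at 3.17 and 7.45 CPM. The replicate 1 values of Sox1 and Pax6 lay under the floor of that sample (0.2795 CPM). Sox2 was at 90.9 and 102 CPM and Six3 at 4.01 and 5.52 CPM. Sox3 was at 19.6 and 18.3 CPM, and Zic1, at the floor, at 0.280 and 0.251 CPM. The part of these transcripts in the Irx values was not tested. In bulk samples, fewer expressing cells and less RNA per cell cannot be told apart.

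The samples of haematopoietic mesoderm stood far apart in the Irx genes. Irx1 was at 3.51 and 0.866 CPM, Irx2 at 3.14 and 1.65 CPM, Irx3 at 12.1 and 5.99 CPM, Irx4 at 1.82 and 0.315 CPM (29 and 4 counts) and Irx5 at 2.64 and 0.788 CPM. Replicate 1 was the higher sample for each of these 5 members, by 4.06-fold for Irx1, 1.90-fold for Irx2, 2.02-fold for Irx3, 5.78-fold for Irx4 and 3.35-fold for Irx5, where 10.1% of 15890 genes were at least 2-fold higher in replicate 1. Beside it, Mesp1, a gene of nascent mesoderm, was at 11.4 and 1.10 CPM in replicates 1 and 2. Meis1 was at 10.4 and 1.73 CPM and Meis2 at 25.5 and 3.54 CPM. The blood and endothelium markers summed to 1229 and 1565 CPM. Those of cardiac mesoderm, Mesp1 among them, summed to 743 and 946 CPM. In that set Pdgfra was lower in replicate 2 too, whereas Kdr, Gata4, Hand1, Nkx2-5, Tbx20 and Mef2c were higher there. The 12 other TALE genes, which include Meis1 and Meis2, summed to 755 and 744 CPM. The part of these genes in the Irx values was not tested.

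No member passed edgeR's quasi-likelihood test between haematopoietic mesoderm and either CM group, where 22.8% of all genes passed against Foxa2+ CM and 21.6% against Foxa2- CM. Against Foxa2+ CM, 3 members had an unadjusted p under 0.05: Irx1 with a log2 fold change of 1.86 (95% interval 0.50 to 3.21, adjusted p = 0.0536), Irx5 with 2.17 (95% interval 0.52 to 3.81, adjusted p = 0.0618) and Irx3 with 0.93 (95% interval 0.06 to 1.80, adjusted p = 0.115). DESeq2 called 2 members, Irx1 and Irx5, as higher in haematopoietic mesoderm there. The share of 22.8% belongs to edgeR's test and is no baseline for DESeq2. For Irx5, 0 of 3 Foxa2+ CM samples reached the minimum of the filter. Against Foxa2- CM, 0 members had an unadjusted p under 0.05, DESeq2 called 0, and the log2 fold changes lay between -0.43 for Irx2 and 0.84 for Irx3. These intervals were wide, for example -0.75 to 2.23 for Irx5, so that no likeness of the groups follows.

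Between endoderm and haematopoietic mesoderm, 3 members were higher in endoderm and 1 was lower, where 32.6% of all genes tested passed in either direction, 16.4% as higher and 16.2% as lower. Irx5 had a log2 fold change of 2.86 (95% interval 1.33 to 4.38, adjusted p = 0.0102), Irx3 of 2.66 (95% interval 1.69 to 3.62, adjusted p = 0.00142) and Irx1 of 2.10 (95% interval 0.78 to 3.42, adjusted p = 0.0217), each by edgeR's quasi-likelihood test. The member that was lower was Irx4, for which being tested rested on the groups other than endoderm. For Irx2 the log2 fold change was 0.83 (95% interval -0.40 to 2.07, adjusted p = 0.287). Only the call of Irx3 was kept in all 15 alternative settings of this comparison; without endoderm replicate 2 it was the single call.

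Irx6 was not detected above the floor in 9 of the 10 samples. It had 2 counts in each Foxa2+ CM sample, 1 count in each Foxa2- CM sample, 0 and 4 counts in endoderm, and 2 and 0 counts in haematopoietic mesoderm. It did not pass the filter, so no fold change is given, and 4 counts in endoderm replicate 2 exceeded the floor of 3 by a single read.

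The make-up of the family's counts was described by the share of each member. Irx4 took 12.6%, 3.85% and 10.4% of the counts on the 6 genes in the Foxa2+ CM samples (95% exact binomial intervals 6.89% to 20.6%, 1.26% to 8.75% and 6.06% to 16.3%) and 12.7%, 9.16% and 7.83% in the Foxa2- CM samples. In endoderm it took 0 of 548 counts, which allows a share of up to 0.547% (3 counts of the total; the 95% exact binomial limit is 0.671%), and 0.0714% of 1401 counts (95% exact binomial interval 0.00181% to 0.397%). In haematopoietic mesoderm its shares were 7.80% and 3.28%. Irx3 held the largest share in 9 of the 10 samples, from 39.2% to 72.6%, and in Foxa2- CM replicate 2 Irx2 held 33.6% against 32.8% for Irx3.

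**Figure D3:**
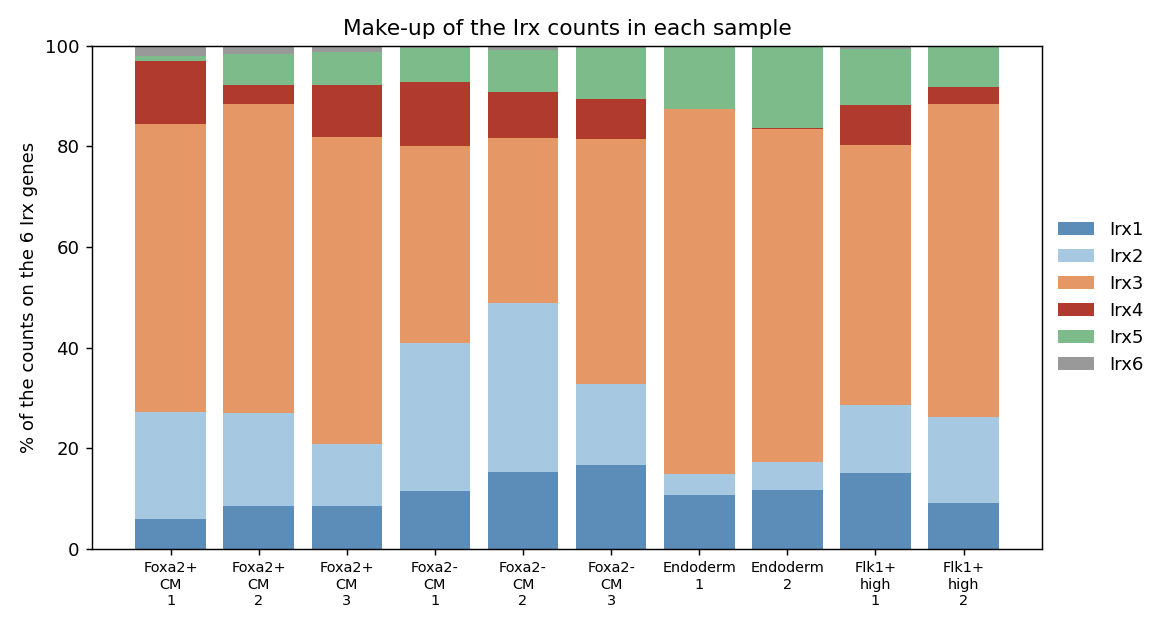
Share of each member in the counts on the 6 Irx genes, in percent, for each of the 10 samples (bars; numbers under the bars are replicates). Irx3 makes up 66.3% and 72.6% of the endoderm bars, from which Irx4 is nearly absent, and Irx2 takes 12.3% to 33.6% of the CM bars.

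Across the 10 samples, Irx1 and Irx5, which lie in different clusters, followed each other most closely of all member pairs. On log2 CPM their Pearson r was 0.98 and the rank order of the 10 samples was identical (Spearman rho 1), and over the 8 samples other than endoderm r was 0.93. Irx3 and Irx5 of the IrxB cluster had r = 0.93 over 10 samples and 0.69 over the 8. Within the IrxA cluster, Irx1 and Irx2 had r = 0.76 over 10 samples, whereas Irx1 and Irx4 had -0.44, which was 0.63 over the 8 samples without endoderm. These values describe 10 samples in 4 groups, and samples of a group share their lineage and culture.

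**Figure D4:**
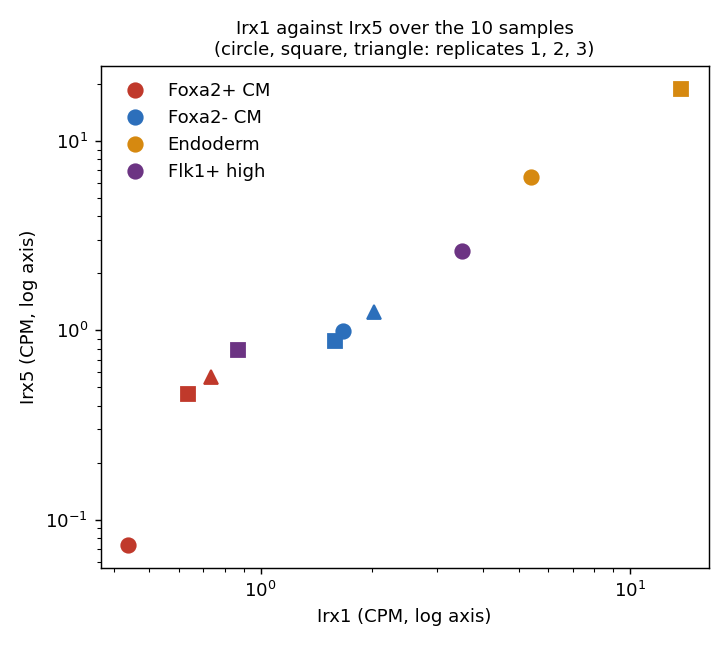
Irx5 against Irx1 in CPM, both on log axes, with a point per sample coloured by group and shaped by replicate. The 10 samples have the same order on both axes, from 0.439 and 0.0731 CPM in Foxa2+ CM replicate 1 to 13.7 and 18.9 CPM in endoderm replicate 2.

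The genes whose pattern over the 10 samples was most like that of a member were listed by Pearson r on log2 CPM among protein-coding genes averaging 50 counts or more. For Irx1 they were Wwc1, Arnt2 and Fblim1 (r = 0.98 each), for Irx5 Agtrap, Stau2 and Smad5 (r = 0.98 each), and for Irx3 Uchl1, Mecom and Pik3cb (r = 0.98 each). Their levels were highest in endoderm, as with Mecom, a zinc finger transcription factor, at means of 26.6 CPM in endoderm, 2.46 CPM in Foxa2+ CM, 2.53 CPM in Foxa2- CM and 5.08 CPM in haematopoietic mesoderm. For Irx2 the likeness was lower, with Robo3 (r = 0.91), Pfkfb3 (r = 0.89) and Kctd6 (r = 0.87). For Irx4 they were Rbck1 (r = 0.96), Snx8 (r = 0.95) and Trmt61a (r = 0.94). Their group means differed little, for Rbck1 from 155 CPM in endoderm to 173 CPM in Foxa2- CM. The names depended in part on the setting. Under Spearman rho or a prior count of 0.5, at least 2 of a member's 3 genes stayed in 7 cases. Fewer stayed in 3 cases, a case being 1 member under 1 setting.

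The neighbours of the members on the chromosome were described next, since both clusters lie in long stretches with few other genes. In the IrxB cluster, 3 RNA genes between the members passed the filter, and all 3 rose in endoderm against both CM groups by the quasi-likelihood test of edgeR, Benjamini-Hochberg adjusted. Crnde, on the opposite strand, starts 1.505 kb from the start of Irx5 and was at 10.9 and 17.9 CPM in endoderm against 1.505 to 3.61 CPM in the CM samples, with a log2 fold change of 2.94 against Foxa2+ CM (adjusted p = 1.62e-04). Gm21817, inside the span of Crnde on the same strand, rose by 3.04 on the log2 scale (adjusted p = 0.00281), and since these genes overlap their values are uncertain. Irx3os, the antisense gene of Irx3, had 14 and 37 counts in endoderm and a log2 fold change of 2.48 against Foxa2+ CM (adjusted p = 0.00395). Between the CM groups, Crnde had a log2 fold change of -0.60 and Gm21817 of -0.84, and neither passed (adjusted p = 0.314 and 0.561).

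Outside the spans, the 3 nearest protein-coding genes on each side were listed. Fto, whose introns hold known enhancers of Irx3, had a log2 fold change of 0.23 in endoderm against Foxa2+ CM (adjusted p = 0.0102) and 0.04 between the CM groups (adjusted p = 0.787). Aktip rose by 1.13 on the log2 scale in endoderm against Foxa2+ CM (adjusted p = 3.57e-05) and Lpcat2 by 1.39 (adjusted p = 0.0218), whereas Rpgrip1l and Mmp2 did not pass. Against Foxa2- CM, Fto and Aktip rose in endoderm by 0.27 and 1.17 (adjusted p = 0.00520 and 3.59e-05), Mmp2 fell by 1.05 (adjusted p = 0.00616), and Lpcat2 and Rpgrip1l did not pass (adjusted p = 0.125 and 0.507). On the IrxA side, Ice1, Ndufs6, Mrpl36 and Lpcat1 did not pass in endoderm against either CM group. Adamts16, which encodes a secreted protease, was at 8.22 and 9.92 CPM in haematopoietic mesoderm against 0 to 0.959 CPM in the CM samples, and rose against Foxa2+ CM by 5.29 on the log2 scale (adjusted p = 0.00590).

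**Figure D5:**
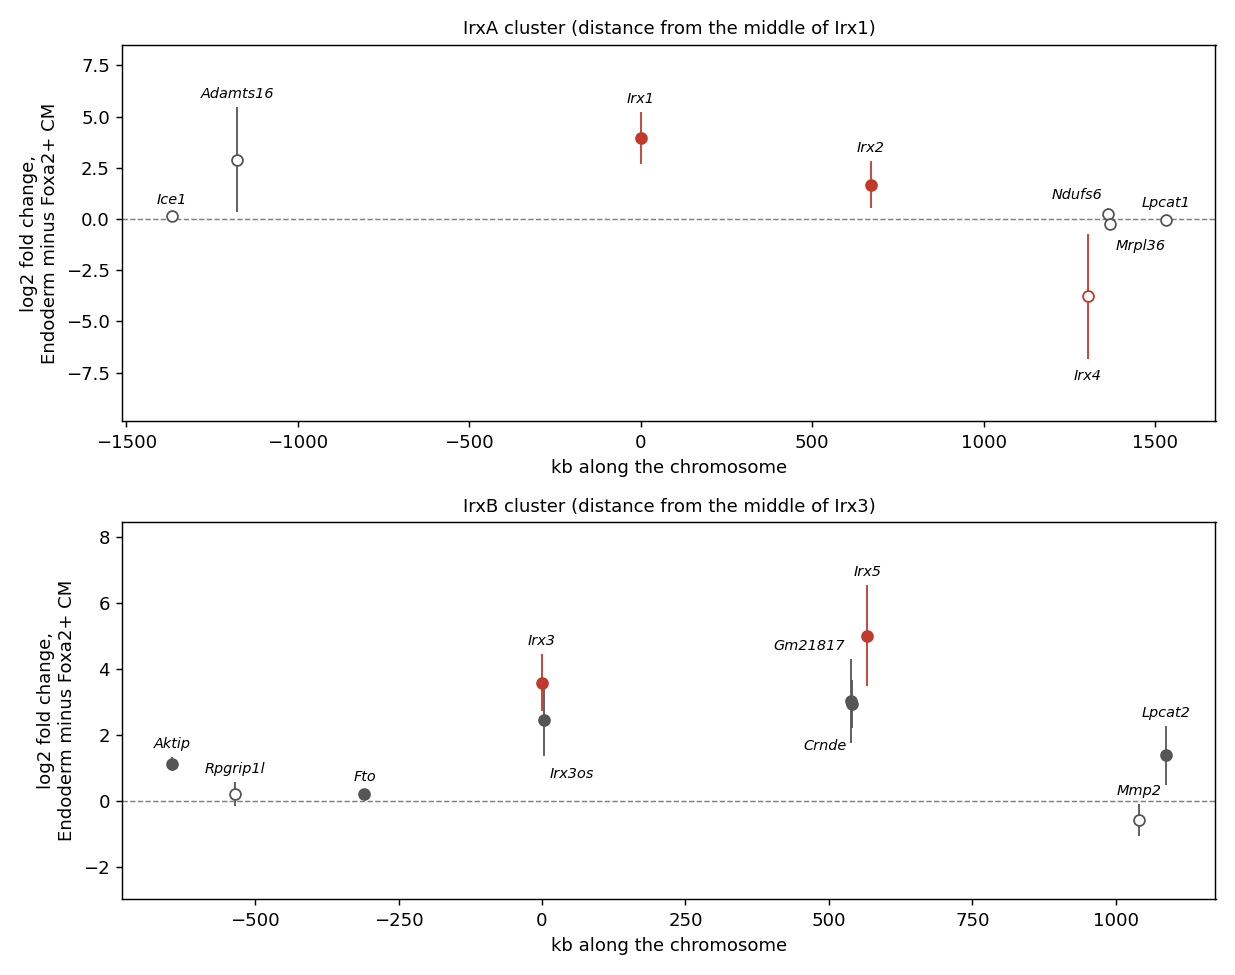
Log2 fold change of endoderm minus Foxa2+ CM (points) with its 95% interval (lines) for the members (red) and the genes inside and beside each cluster (grey), by distance in kb from Irx1 or Irx3; filled points have an adjusted p under 0.05. In the IrxB cluster the members and the 3 RNA genes between them lie between 2.48 and 5.02, while Irx4 is the only point of the IrxA cluster far below 0.

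The promoters of Irx3 and Irx4 are shown because these members lay at opposite ends in endoderm. Each sequence runs from 250 bases before to 50 bases after the RefSeq start (GRCm38.p6) on the gene's own strand, with CG dinucleotides in capitals. Of the 6 members, Irx2, Irx3 and Irx4 had such a sequence, at chr13:72628570-72628869, chr8:91801605-91801904 and chr13:73260247-73260546. The Irx3 sequence lies wholly inside the GENCODE M21 spans of Irx3 and Irx3os. It therefore does not cover the bases before the GENCODE start of Irx3, at chr8:91802067.
Irx3: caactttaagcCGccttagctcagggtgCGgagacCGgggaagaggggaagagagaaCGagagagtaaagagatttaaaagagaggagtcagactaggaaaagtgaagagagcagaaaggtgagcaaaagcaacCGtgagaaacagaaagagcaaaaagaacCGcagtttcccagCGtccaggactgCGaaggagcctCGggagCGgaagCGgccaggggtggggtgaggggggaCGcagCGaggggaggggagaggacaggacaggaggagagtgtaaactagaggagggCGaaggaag
Irx4: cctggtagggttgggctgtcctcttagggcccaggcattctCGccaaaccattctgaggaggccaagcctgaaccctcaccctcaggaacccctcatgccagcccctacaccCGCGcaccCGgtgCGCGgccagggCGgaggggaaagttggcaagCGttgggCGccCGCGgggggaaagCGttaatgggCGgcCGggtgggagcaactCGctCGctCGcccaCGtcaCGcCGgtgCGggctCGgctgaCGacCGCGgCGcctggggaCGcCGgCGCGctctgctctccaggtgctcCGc

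The Irx3 sequence held 14 CG dinucleotides and 56.0% G or C, and the Irx4 sequence held 31 and 70.7%, where the median over 32851 promoters was 7 and 52.7%. At least as many CG dinucleotides as in Irx4 were present in 10.6% of the promoters, and as in Irx3 in 36.3%. On both strands, 5 motifs were searched: TGTTTAC (forkhead factors such as Foxa2; in 3.65% of all promoters), AGATAA (zinc finger factors such as Gata4, for which the variant with T as its first letter, TGATAA, was counted as well; 18.6%), GGTGTGA (T-box factors; 3.98%), ACANNTGT (Iroquois proteins; 7.38%) and TATAAA (the core promoter element of that name; 13.6%). Some letters can serve more than 1 of these motifs. The promoters of Irx2, Irx3 and Irx4 held none of them, which says only that these letters are not in these windows.

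Of 12 other TALE genes, all tested between the CM groups, 3 fell in Foxa2+ CM and none rose, beside 2.66% of all genes tested that fell and 3.81% that rose: Meis1 by 1.80, Meis2 by 1.57 and Mkx by 0.88 on the log2 scale (adjusted p = 0.0162, 0.0118 and 0.0215 by edgeR's quasi-likelihood test). Meis1 and Meis2 encode homeodomain partners of Pbx and Hox proteins, and Mkx a homeodomain protein of tendon that is close to the Iroquois proteins. Meis1 was at 1.68, 1.33 and 2.31 CPM in Foxa2+ CM and at 4.46, 5.79 and 8.30 CPM in Foxa2- CM, with no overlap. The median log2 fold change of the 12 genes was -0.03, beside 0.00 over all genes tested, and the other 9 genes did not pass. Without replicate 2 of either CM group, none of the 3 passed, and without Foxa2+ CM replicate 1 a single one did.

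Of 6 regulators of Irx4 and of ventricular development, 2 rose in Foxa2+ CM and 1 fell, where 3.81% and 2.66% of all genes did. Nkx2-5, a cardiac homeodomain factor needed for Irx4, was at 29.1, 25.1 and 20.1 CPM in Foxa2+ CM and 14.2, 10.002 and 10.1 CPM in Foxa2- CM, a rise of 1.11 on the log2 scale (adjusted p = 0.0152). Tbx5, a T-box factor of the early heart field, rose by 1.76 on the log2 scale (adjusted p = 0.0331), and Hand1, a factor of the left ventricle, fell by 1.04 (adjusted p = 0.0429). Hand2, Gata4 and Mef2c did not pass. None of the 3 calls was kept without Foxa2+ CM replicate 1 or 2 or Foxa2- CM replicate 2, and 1 was without Foxa2- CM replicate 1. In endoderm, 5 of these 6 genes were lower than in Foxa2+ CM and all 6 were lower than in Foxa2- CM, with a median log2 fold change of -4.76 and -4.40, where 16.7% and 14.0% of all genes tested were lower.

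Among 13 partners and targets of Iroquois proteins in heart and limb, 8 were tested between the CM groups, and 1 rose and 1 fell in Foxa2+ CM (3.81% and 2.66% of all genes). Cxcl12, a chemokine, was at 1.10, 1.91 and 2.43 CPM in Foxa2+ CM against 6.44, 9.60 and 10.9 CPM in Foxa2- CM, and fell by 2.29 on the log2 scale (adjusted p = 0.00735), and Gata3 rose by 0.55 (adjusted p = 0.0260). The remaining 6 did not pass, with a median log2 fold change of 0.11 over the 8. Without Foxa2+ CM replicate 2 none passed, and without Foxa2- CM replicate 2 a single gene did. In endoderm against Foxa2+ CM, 5 of 9 tested were higher and 3 lower, beside 18.3% and 16.7% of all genes.

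Ventricular genes other than Irx4 gave few values between the CM groups. Of 6 listed (Myl2, Myl3, Myh7, Hey2, Lbh and Nppb), 2 passed the filter between the CM groups, and neither Hey2, a repressor of atrial genes (log2 fold change -0.78, adjusted p = 0.342), nor Lbh (log2 fold change -0.56, adjusted p = 0.268) passed the test. Of 7 atrial genes, 4 were tested and 2 rose in Foxa2+ CM (3.81% of all genes), the nuclear receptor gene Nr2f1 by 1.71 on the log2 scale (adjusted p = 0.0337) and Tbx5, which stands in both lists. The number of atrial genes called was 0 without replicate 1 or 2 of either CM group and 1 without Foxa2+ CM replicate 3. In endoderm, 4 ventricular genes were tested. Myh7, Myl3 and Lbh were higher there than in each CM group and Hey2 was lower. Against Foxa2+ CM 18.3% of all genes were higher and 16.7% lower, against Foxa2- CM 16.1% and 14.0%. Myh7 and Myl3 were at most at 0.29 CPM in the CM samples, so that being tested rested on the other groups. Of 5 atrial genes tested, 1 was higher and 3 were lower in endoderm against each CM group. The remaining lists were counted for the mixture of cell types between the CM groups, where 3.81% of all genes tested rose and 2.66% fell. Of 8 definitive endoderm genes, 2 rose and none fell (1 of the 2 is Foxa2, whose reporter was sorted on). Of 8 cardiac mesoderm genes, 1 rose and 2 fell, and 1 of 8 tested blood and endothelium genes rose. Of 4 tested neural plate genes, 1 rose and 1 fell. Among pluripotency genes 1 of 4 fell, and 2 of 5 tested paraxial mesoderm genes fell. The 2 paraxial genes were Foxc1 and Tbx6, and Mesp1 fell by 3.10 on the log2 scale (adjusted p = 0.00627). The part of these genes in the Irx values was not tested.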

How the data were processed

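RNA was sequenced from 10 sorted samples, grouped and numbered as labelled. Per the labels and the study's methods, the authors mapped single-end reads of 50 nt with STAR 2.5.0a to mm10, removed duplicate reads with Picard and made raw counts per gene with HTSeq 0.6.0; the deposited counts are not normalized. The strand setting is not given in the sources used here, and removing duplicates without molecular identifiers limits high counts. The summary lines at the end of each file stayed out of library sizes.

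Counts were filtered with filterByExpr, scaled with TMM and tested with edgeR 4.0.16 (quasi-likelihood test, R 4.3.3) and Benjamini-Hochberg adjustment at 0.05 over all genes tested. The CM groups were compared on their 6 samples and the other groups on all 10 in 1 model. A standard error is the size of the log2 fold change over the root of F. Levels are CPM, or RPKM over the summed exon length of GENCODE M21. All 6 members were named, with the 3 genes most like each by Pearson r (log2 CPM, prior count 2), the listed pathway genes that passed between the CM groups, the cluster neighbours and the sort genes; a few further genes with values beside a result were chosen after their values were seen. The script was tested on simulated data. Alternatives were DESeq2 1.42.0, RLE scaling, no filter, a 2-fold limit, a replicate block, other samples in the model and leaving out each replicate. Members and lists were chosen with earlier results of these data known. Total counts of 10926284 to 17470126 per sample set the precision; intervals of counts cover counting error only.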

Additional observations from a re-analysis of the deposited data

How the results depend on the processing

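The number of Irx genes called between Foxa2+ CM and Foxa2- CM was 1 (Irx1) and depended on the setting: it was 2 without the filter on low values (Irx1 and Irx2), 3 with the replicate block (Irx1, Irx2 and Irx5), 0 with all 10 samples in 1 model, 4 without replicate 3 of both groups (added after seeing the data), and 0 to 2 when each sample was left out. Same-numbered CM samples deviated together with r = 0.483, 0.087 and 0.581, not all above 0.1, and no label says that a number marks a shared culture, so the block is only an alternative; it moved the calls over all genes from 6.48% to 16.7%. Between haematopoietic mesoderm and Foxa2+ CM the count was 0, and 2 under DESeq2 and 2 without the filter (Irx1 and Irx5 each time), with 0 to 2 when each sample was left out. Against Foxa2- CM it was 0 in all settings run. Between endoderm and haematopoietic mesoderm it was 4, and 1 (Irx3) when only these 2 groups were fitted, where 4 members were tested; leaving out each sample gave 1 to 4. Endoderm against Foxa2- CM gave 4, and 2 to 4 when each sample was left out; endoderm against Foxa2+ CM gave 4, and 3 to 5. The lowest count of each endoderm comparison came without endoderm replicate 2 and, for Foxa2+ CM, also without replicate 1 or 3 of that group. The cause of these changes was not tested.

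Among listed genes, the calls between the CM groups fell from 3 TALE genes, 3 regulators of Irx4 and 2 atrial genes to 0, 1 and 0 with all 10 samples in 1 model.

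Signs turned only in values that were not called, when single samples were left out. Irx3 between the CM groups ran from -0.31 to 0.05 (without Foxa2- CM replicate 3). In endoderm, Irx2 ran from -0.61 to 0.96 against Foxa2- CM and from -0.17 to 1.40 against haematopoietic mesoderm, lowest without endoderm replicate 2. Against Foxa2+ CM, Irx4 in haematopoietic mesoderm ran from -1.14 to 1.33, and against Foxa2- CM, Irx4 ran from -1.97 to 0.51, Irx5 from -0.40 to 1.31 and Irx1 from -1.02 to 0.96, each lowest without haematopoietic mesoderm replicate 1 and highest without replicate 2. Irx4 was at 0.18 without Foxa2- CM replicate 1. Groups of 2 or 3 samples and counts of under 30 for Irx1, Irx4 and Irx5 in most CM samples limited what could be detected.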
